A study of Mus musculus with 8 samples.

Results

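Lmna, Lmnb1, Lmnb2, Lbr, Sun1, Sun2, Syne1 and Syne2 encode the lamins, the lamin B receptor and the proteins that tie the lamina to the cytoskeleton. These 8 of 21631 protein-coding genes were chosen by family, with earlier results of these data known, and the Lmna island was selected on its width in the lists, so that width is given as a description. For each gene, the stretch from 20 kb before to 20 kb after the gene was examined, and the islands of 7 lists over it were recorded. An island is a continuous stretch of genome in which a library was called enriched, and the covered length is the number of bases of that stretch lying under islands of a library. Chromatin immunoprecipitation sequencing had been done on mesenchymal stem and progenitor cells cultured from mouse bone marrow. H3K4me3, H3K4me2 and H3K27me3 were each mapped in Asxl1-/- cells and in wild-type cells, and ASXL1 was mapped in wild-type cells. Both genotypes were on the C57BL/6 background and were used at passages 5 to 10. The sources used here do not give how Asxl1 was deleted, the number of animals pooled or their age. There was 1 library per target and genotype, so differences between genotypes have no replicate check and no test was possible.

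The nuclear lamina is a meshwork of lamins under the inner nuclear membrane. A-type lamins come from Lmna and are abundant in stiff mesenchymal tissues, whereas B-type lamins come from Lmnb1 and Lmnb2 and are made in nearly all cells. Lamins bind inner membrane proteins such as the lamin B receptor and the SUN proteins, and SUN proteins reach across the envelope to nesprins, encoded by Syne1 and Syne2, which hold actin and microtubules. H3K4me3 lies at active promoters, H3K4me2 at promoters and enhancers, and H3K27me3 at genes silenced by Polycomb complexes. ASXL1 is a chromatin regulator that works with the deubiquitinase BAP1 and with Polycomb proteins.

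The lists held 15276 H3K4me3 islands in Asxl1-/- cells and 17884 in wild-type cells, with a median width of 4200 bp in Asxl1-/- cells and 3400 bp in wild-type cells. H3K4me2 gave 33586 islands in Asxl1-/- cells and 36046 in wild-type cells, and H3K27me3 gave 20248 in Asxl1-/- cells and 17712 in wild-type cells. The ASXL1 list held 17419 islands. The lists carry no read counts or scores, so depth is unknown, and a narrower island cannot be told apart from a shallower library. Of 8 stromal marker genes, 7 had an H3K4me3 island at a start in Asxl1-/- cells, all but Eng, and 8 had one in wild-type cells, while 4 blood and 2 endothelial markers had none in either genotype. Asxl1 itself had an H3K4me3 start island of 6.2 kb in Asxl1-/- cells and 7.2 kb in wild-type cells, which does not check the deletion. Whole chromosomes differed between the genotypes, so the ratio of covered length over the member's chromosome stands beside each member's ratio, and its part in the result was not tested.

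Lmna lay on the minus strand of chromosome 3 at 88481148 to 88509932 (mm10) and encodes lamins A and C. In the RefSeq tables it has 3 starts, at the upstream end of the gene and 6.58 and 16.6 kb into it. In Asxl1-/- cells H3K4me3 lay over the gene in 3 islands of 9.2, 9.2 and 5.4 kb, parted by gaps of 400 bp. In wild-type cells a single H3K4me3 island of 30 kb (chr3:88487400-88517399) covered all 3 starts, and it was the fourth widest of 17884. Each of the 3 Asxl1-/- islands lay over 1 of the starts, and all of them lay inside wild-type islands. The 3 Asxl1-/- islands spanned 24.6 kb, and the wild-type island reached 5 kb further on the upstream side and 0.4 kb further on the downstream side. Of the wild-type island, 79.3% was also covered in Asxl1-/- cells. A second wild-type H3K4me3 island of 2.6 kb (chr3:88484400-88486999) lay inside the gene, downstream of the first and parted from it by 400 bp. None of this second island was covered in Asxl1-/- cells. When islands were merged across gaps of up to 1000 bp, the H3K4me3 island at Lmna was 24.6 kb in Asxl1-/- cells and 33 kb in wild-type cells.

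**Figure D1:**
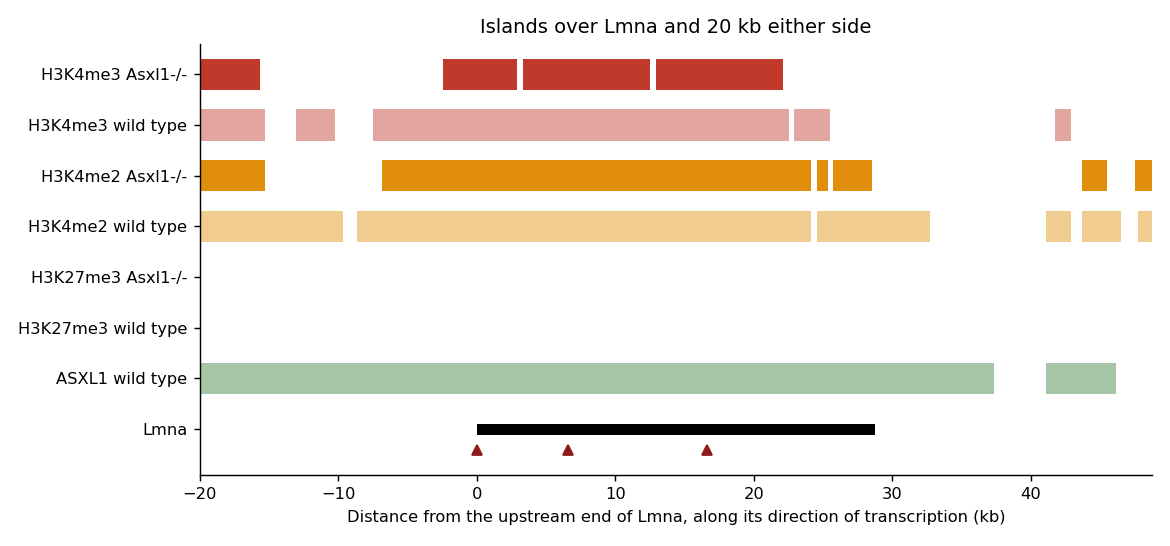
Islands of the 7 lists over Lmna and 20 kb either side, by distance from the upstream end of the gene in kb; the black bar is the gene and the triangles are its 3 starts. H3K4me3 over the gene forms 3 islands of 9.2, 9.2 and 5.4 kb in Asxl1-/- cells. In wild-type cells it forms an island of 30 kb over the starts and one of 2.6 kb further downstream. All of these lie within an ASXL1 island of 73.2 kb, and H3K27me3 is empty in both genotypes.

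H3K4me2 did not show this break at Lmna. One H3K4me2 island of 31 kb covered the 3 starts in Asxl1-/- cells, and one of 32.8 kb did so in wild-type cells, of which 94.5% was shared. The wild-type list also held a second H3K4me2 island of 8.2 kb at the downstream end of the gene, where Asxl1-/- cells had islands of 2.8 and 0.8 kb. Merged across the same gaps, the H3K4me2 island was 35.4 kb in Asxl1-/- cells and 65.8 kb in wild-type cells, where it reached as far as Mex3a. No H3K27me3 island lay in the Lmna window in either genotype. The ASXL1 island over Lmna in wild-type cells was 73.2 kb wide (chr3:88472600-88545799), the sixth widest of 17419. It covered 100% of the gene body and ran on over the start of Mex3a, a gene for an RNA-binding protein.

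Over Lmna and 20 kb either side, H3K4me3 covered 28.1 kb in Asxl1-/- cells and 41.3 kb in wild-type cells, a ratio of 0.681. That difference was short of the limit for a call, a covered length 1.5-fold higher or lower. The whole of chromosome 3 had a ratio of 0.700, and divided by it the Lmna ratio was 0.972. H3K4me2 covered 42.4 kb in Asxl1-/- cells and 57.0 kb in wild-type cells, a ratio of 0.744, against 0.532 for the chromosome. Divided by the chromosome the H3K4me2 ratio of Lmna was 1.40. On chromosome 3, 31.9% of genes were called lower for H3K4me3, 59.6% for H3K4me2 and 88.5% for H3K27me3. Part of the Lmna window belongs to neighbours: an H3K4me3 island of 13 kb in Asxl1-/- cells and 13.6 kb in wild-type cells lay over the start of Mex3a, and H3K4me2 islands at the other edge lay over the start of Sema4a. Within the gene body alone the H3K4me3 ratio of Lmna was 0.849.

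The 250 bases before the 2 inner starts of Lmna are given here because both starts lay under the wide island; they are from RefSeq (GRCm38.p6), minus strand, with CpG in capitals.
Lmna, start at 88503352 (chr3:88503353-88503602): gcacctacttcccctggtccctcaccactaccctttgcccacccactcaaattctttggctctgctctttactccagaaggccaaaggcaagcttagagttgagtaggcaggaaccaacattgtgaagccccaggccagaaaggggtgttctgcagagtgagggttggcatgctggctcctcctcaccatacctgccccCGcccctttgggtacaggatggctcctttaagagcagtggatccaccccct
Lmna, start at 88493312 (chr3:88493313-88493562): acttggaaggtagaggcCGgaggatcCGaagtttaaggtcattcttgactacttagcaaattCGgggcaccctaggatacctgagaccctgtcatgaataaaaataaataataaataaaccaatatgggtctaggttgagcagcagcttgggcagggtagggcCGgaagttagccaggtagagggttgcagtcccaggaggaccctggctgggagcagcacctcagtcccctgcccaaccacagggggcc

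The promoter of the 88503352 start, counted over 300 bases from 250 before to 50 after the start, held 1 CpG, and 5.43% of 32851 RefSeq promoters held fewer. The 88493312 promoter held 7, equal to the median of all promoters. The most upstream start of Lmna had no entry in the promoter table. The first of these promoters held GGGCGG, the box bound by Sp1-type factors, which 35.7% of all promoters hold. The 88493312 promoter held CCAAT, the box bound by NF-Y, present in 37.4%. All 8 genes were searched for 4 further motifs on both strands where a promoter was listed. These were TATAAA, held by 13.6% of promoters, the E-box CACGTG by 7.15%, the forkhead motif GTAAACA by 3.65% and the YY1 motif AAGATGG by 6.34%, and neither Lmna promoter held any of them. No motif contains another.

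Lmna stood apart from the other 7 genes in island width. The start island, defined as the widest island within 1000 bp of a start, was for H3K4me3 9.2 kb in Asxl1-/- cells and 30 kb in wild-type cells. Across all protein-coding genes with one, the median was 5 kb in Asxl1-/- cells and 4.4 kb in wild-type cells. The start islands of the other 7 genes ran over 1.6 to 12.2 kb in Asxl1-/- cells, where all 7 had one, and over 4.4 to 8.2 kb in wild-type cells, where 6 had one. The island was wider in Asxl1-/- cells at Lmnb1, Lmnb2, Lbr, Sun2 and Syne2 and narrower at Lmna and Sun1. At Lmnb2 the widths are of different starts. The 12.2 kb of Asxl1-/- cells lay over its second start and the neighbour Timm13, and the 4.4 kb of wild-type cells at its upstream start. At that upstream start Asxl1-/- cells had 8.2 kb. Sun2, at 11.4 kb, was also wider than Lmna in Asxl1-/- cells. In wild-type cells Lmna thus lay above the range of the others, and in Asxl1-/- cells it lay inside that range. The place in Asxl1-/- cells rested on the gaps of 400 bp: merged across gaps of up to 1000 bp, an alternative added after the values were seen for the other 7 genes, Lmna was at 24.6 kb and the others at 1.6 to 12.2 kb. For H3K4me2, Lmna lay above the others in both genotypes, with 31 kb in Asxl1-/- cells against 3 to 15 kb for the others, and 32.8 kb in wild-type cells against 3 to 19.6 kb. For ASXL1 the Lmna start island of 73.2 kb stood against 1.4 to 18.2 kb. Wide start islands were also found on the longer envelope list described below, from which Syne3 and Rce1 were picked after their values were seen. Syne3 had 28.4 kb of H3K4me2 in Asxl1-/- cells, 29 kb in wild-type cells, and 37.4 kb of ASXL1. Rce1 had 19.8 kb of H3K4me3 in Asxl1-/- cells and 7.6 kb in wild-type cells.

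**Figure D2:**
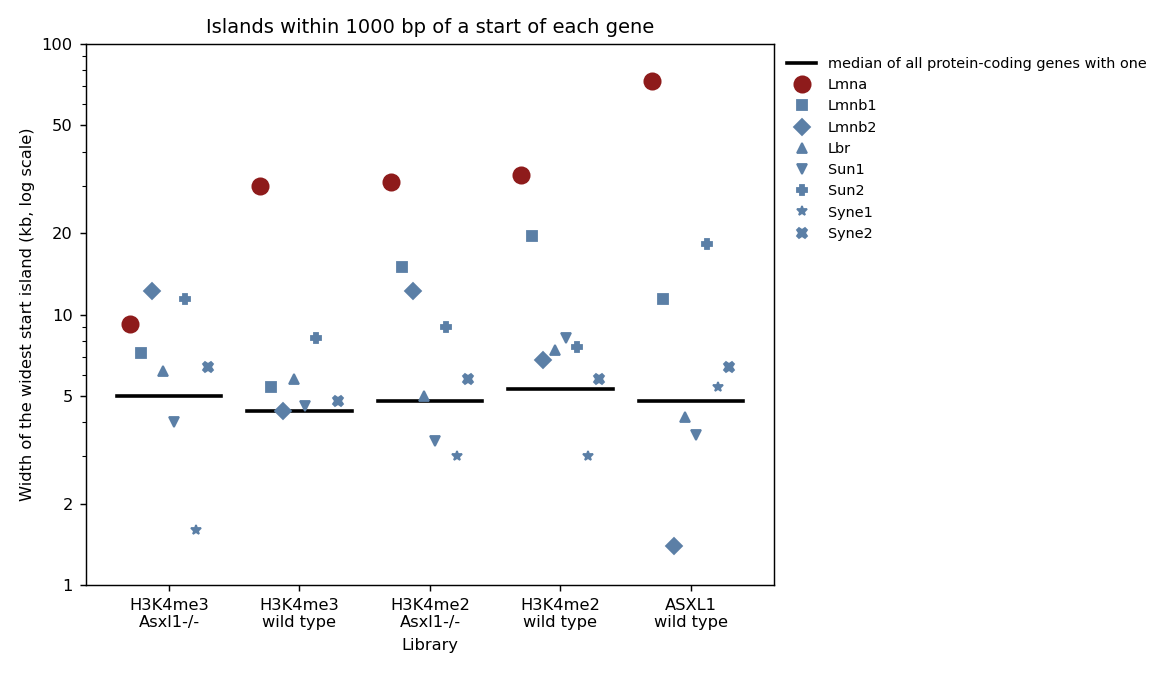
Width of the widest island within 1000 bp of a start of each of the 8 genes, on a log scale in kb, in 5 libraries; the black lines are medians over all protein-coding genes with such an island. Lmna, in red, is at 9.2 kb for H3K4me3 in Asxl1-/- cells, inside the range of the others (24.6 kb, above it, when islands are merged across gaps of up to 1000 bp), and at 30 kb in wild-type cells, above the range.

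The break of the H3K4me3 island was set beside the 50 widest wild-type H3K4me3 islands, all of 17.6 kb or more, a comparison chosen after the values were seen. The Lmna island is itself among the 50, so its own values enter the medians. A median of 97.1% of their length was covered in Asxl1-/- cells, and 7 of the 50 had a lower share than the 79.3% of Lmna. Of the 50, 35 met a single Asxl1-/- island and 4, the Lmna island included, met 3 or more. The widest Asxl1-/- island was 0.307 times the wild-type width at Lmna, against a median of 0.979, and 3 islands had a lower value. The 4 of these islands on chromosome 3, the Lmna island included, had a median of 85.1% covered and a median width ratio of 0.561.

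The coverage pattern most like that of Lmna, by Euclidean distance over the percent of the window covered in the 7 libraries, was that of Vasn, at a distance of 11.9, followed by Adamtsl4 at 18.9 and Nfix at 19.6. Vasn encodes a membrane protein that binds TGF-beta, and its window was covered by H3K4me3 to 43.7% in Asxl1-/- cells and 51.1% in wild-type cells, beside 40.9% in Asxl1-/- cells and 60.1% in wild-type cells for Lmna. Adamtsl4 encodes a matrix protein of the fibrillin microfibrils, lies on chromosome 3 as Lmna does, and was covered to 53.7% by H3K4me3 in both genotypes. Nfix encodes a nuclear factor I transcription factor and was covered to 37.6% in Asxl1-/- cells and 61.6% in wild-type cells. The ASXL1 islands of wild-type cells covered 96.6% of the Vasn window, 93.0% of that of Adamtsl4 and 90.4% of that of Nfix, and 90.6% of the Lmna window, which ranked 34 among 21631 genes.

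The 2 B-type lamin genes had longer H3K4me3 coverage in Asxl1-/- cells. Lmnb1 lay on chromosome 18 at 56707813 to 56753424, with no strand or promoter in the tables, so both gene ends counted as starts. H3K4me3 covered 16.2 kb around Lmnb1 in Asxl1-/- cells and 9 kb in wild-type cells, a ratio of 1.80, against 1.16 for chromosome 18. Divided by the chromosome the ratio was 1.55, and 27.5% of genes on chromosome 18 were called higher for H3K4me3. All of the wild-type length was also covered in Asxl1-/- cells, which had 7.2 kb more. At the lower-coordinate end the island was 7.2 kb in Asxl1-/- cells and 5.4 kb in wild-type cells. Most of the difference lay at and beyond the other end, where the islands were 3 and 6 kb in Asxl1-/- cells and 1.6 and 2 kb in wild-type cells. In the gene body alone the ratio was 1.15, below the limit for a call.

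H3K4me2 around Lmnb1 covered 36.2 kb in Asxl1-/- cells and 32.2 kb in wild-type cells, a ratio of 1.12 that equalled that of the chromosome. The widest H3K4me2 island, at the lower-coordinate end, was 15 kb in Asxl1-/- cells and 19.6 kb in wild-type cells. Much of this H3K4me2 had no H3K4me3 over it, 55.2% in Asxl1-/- cells and 72.0% in wild-type cells. ASXL1 islands of 5.6 and 11.4 kb lay at the lower- and higher-coordinate ends of Lmnb1 in wild-type cells, and no H3K27me3 island lay in its window in either genotype.

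Lmnb2 lay on the minus strand of chromosome 10 at 80901363 to 80918245 and had 2 listed starts, at its upstream end and 11.8 kb into the gene. H3K4me3 covered 32.6 kb of its window in Asxl1-/- cells and 19.05 kb in wild-type cells, a ratio of 1.71. Chromosome 10 as a whole had a ratio of 1.45, and divided by it the Lmnb2 ratio was 1.18, no longer past the limit for a call. On this chromosome 42.6% of genes were called higher for H3K4me3. All of the wild-type length was covered in Asxl1-/- cells as well, which had 13.6 kb more.

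At the upstream start of Lmnb2 the H3K4me3 island was 8.2 kb in Asxl1-/- cells and 4.4 kb in wild-type cells. At the other end of the gene an Asxl1-/- island of 12.2 kb (chr10:80894600-80906799) covered the second start and the start of Timm13, a mitochondrial import gene, whereas the wild-type island of 5.2 kb (chr10:80897200-80902399) covered the start of Timm13 and stopped short of the second start of Lmnb2. H3K4me2 had the same outline there, with 12.2 kb in Asxl1-/- cells and 6.4 kb in wild-type cells. A further island over the start of Gadd45b, a stress response gene, belongs to the upstream flank. The sequence before the second start is shown because it lay under islands of both marks in Asxl1-/- cells and under none in wild-type cells (RefSeq, GRCm38.p6, minus strand, CpG in capitals).
Lmnb2, start at 80906412 (chr10:80906413-80906662): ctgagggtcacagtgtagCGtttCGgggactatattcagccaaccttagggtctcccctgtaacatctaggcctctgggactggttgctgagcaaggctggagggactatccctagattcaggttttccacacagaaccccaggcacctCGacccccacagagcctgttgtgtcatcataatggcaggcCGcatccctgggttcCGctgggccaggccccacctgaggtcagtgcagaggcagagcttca

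The promoter of this second start of Lmnb2 held 6 CpG in its 300 bases, and that of the upstream start held 24. None of the 6 motifs was in the second promoter, and the upstream one held GGGCGG and AAGATGG. H3K4me2 covered 31.8 kb around Lmnb2 in Asxl1-/- cells and 23.6 kb in wild-type cells, a ratio of 1.35 at a chromosome ratio of 1.35. With 10 kb flanks the H3K4me2 ratio was 1.601 and in the gene body 1.51, both past the limit for a call. H3K27me3 covered 11 kb in Asxl1-/- cells and 15 kb in wild-type cells, all of it beyond the downstream end of the gene. Its ratio of 0.733 was opposite to that of the chromosome, 2.09, and it passed the limit with 10 kb flanks, at 0.228, and after division by the chromosome, at 0.351. The ASXL1 island at the upstream start was 1.4 kb, and 1.92% of the ASXL1 start islands of protein-coding genes were narrower. ASXL1 islands of 5.2 and 14.6 kb lay over the starts of Timm13 and Gadd45b.

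**Figure D3:**
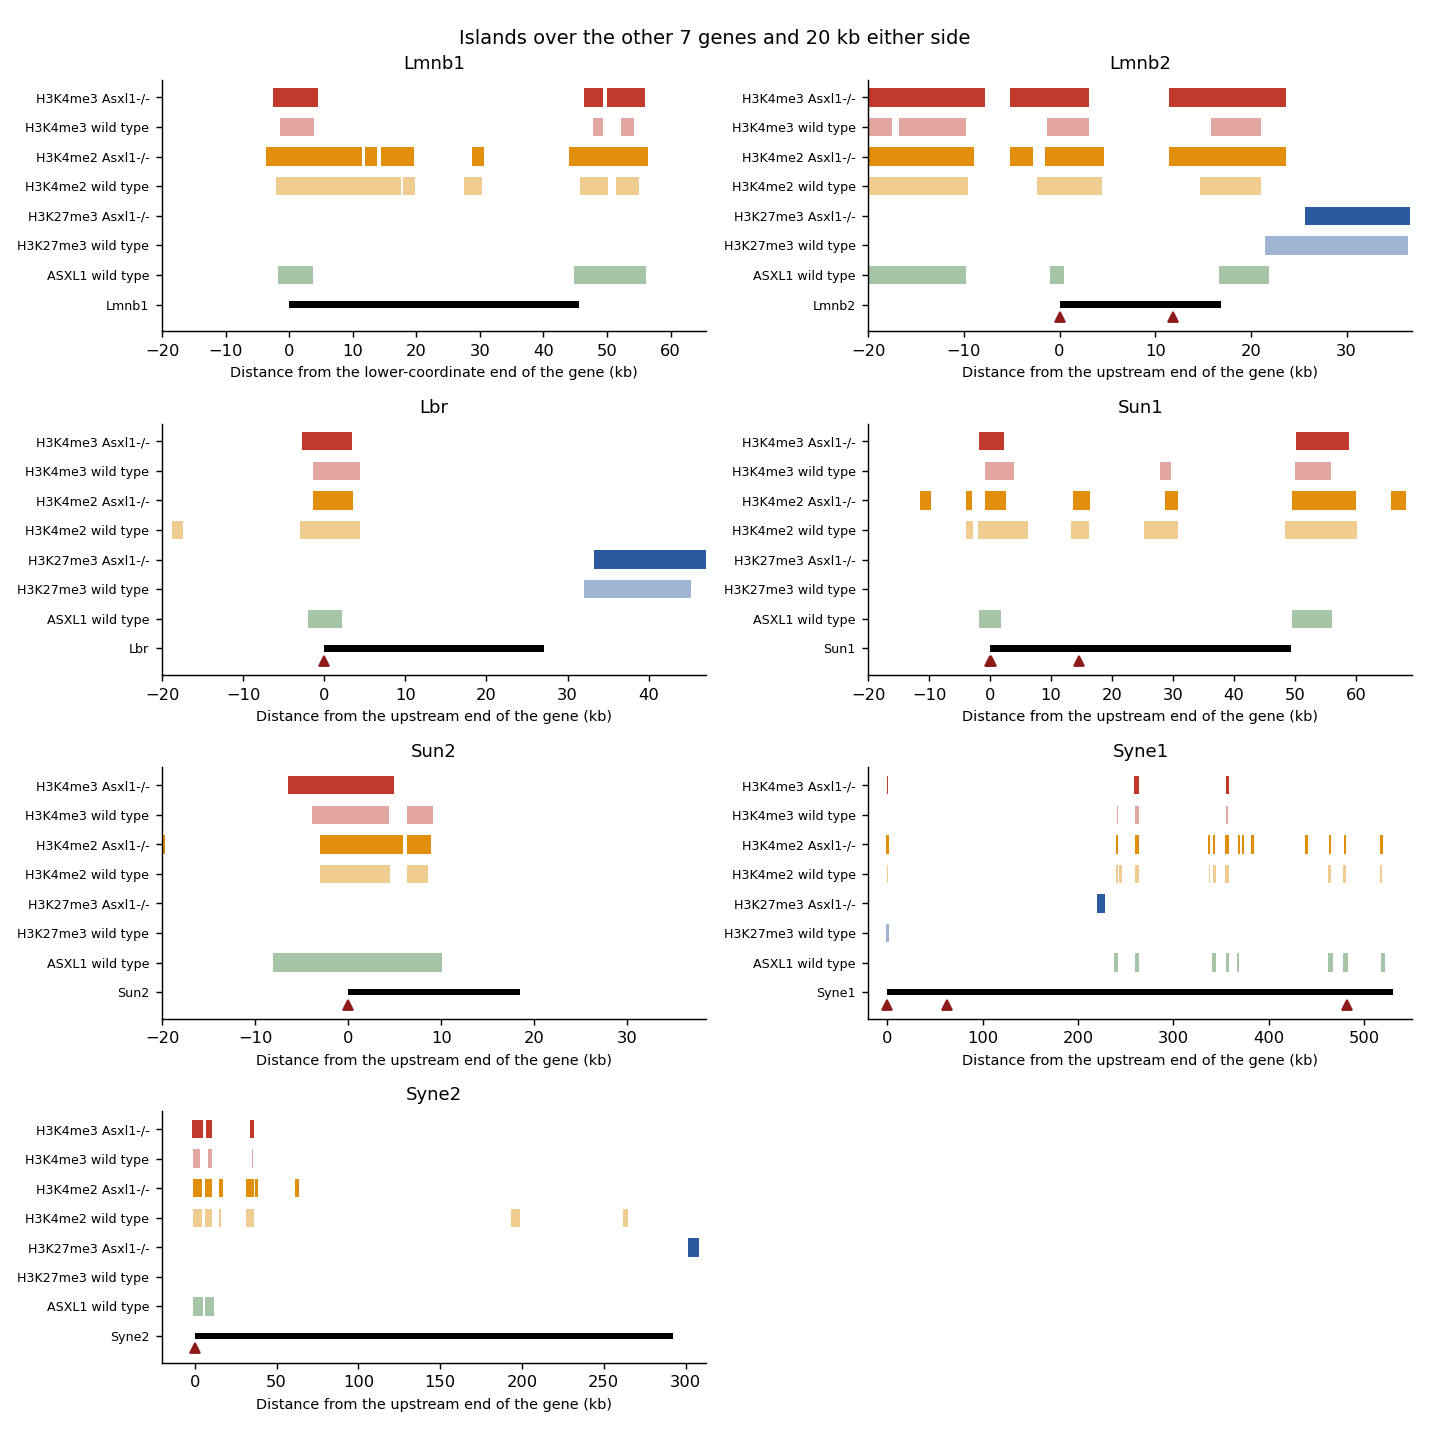
Islands of the 7 lists over Lmnb1, Lmnb2, Lbr, Sun1, Sun2, Syne1 and Syne2 and 20 kb either side, by distance from the upstream end in kb (for Lmnb1, from the lower-coordinate end); black bars are genes and triangles their listed starts. At Lmnb2 an H3K4me3 island of 12.2 kb in Asxl1-/- cells reaches the second start, which the wild-type island of 5.2 kb does not, and H3K27me3 at Syne1 lies in different places in the genotypes.

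Lbr, on the minus strand of chromosome 1 at 181815315 to 181842401, encodes an inner membrane protein that binds B-type lamins and tethers heterochromatin. H3K4me3 formed 1 island at its start, of 6.2 kb in Asxl1-/- cells and 5.8 kb in wild-type cells, a ratio of 1.07 at a chromosome ratio of 1.09. H3K4me2 covered 5 kb in Asxl1-/- cells and 8.8 kb in wild-type cells, a ratio of 0.568, against 0.988 for chromosome 1. This passed the limit for a call, and it rested partly on a wild-type island of 1.4 kb in the upstream flank. The start island itself was 5 kb in Asxl1-/- cells and 7.4 kb in wild-type cells. The ratio was 0.676 with 10 kb flanks and 0.818 in the gene body, neither past the limit. H3K27me3 lay beyond the downstream end of Lbr and covered 13.9 kb in Asxl1-/- cells and 13.2 kb in wild-type cells. Its ratio was 1.05, at a chromosome ratio of 1.34. ASXL1 had 1 island, of 4.2 kb, at the start.

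The promoter of Lbr is shown as the richest in CpG among those listed for the 8 genes (RefSeq, GRCm38.p6, minus strand, CpG in capitals).
Lbr, start at 181842401 (chr1:181842402-181842651): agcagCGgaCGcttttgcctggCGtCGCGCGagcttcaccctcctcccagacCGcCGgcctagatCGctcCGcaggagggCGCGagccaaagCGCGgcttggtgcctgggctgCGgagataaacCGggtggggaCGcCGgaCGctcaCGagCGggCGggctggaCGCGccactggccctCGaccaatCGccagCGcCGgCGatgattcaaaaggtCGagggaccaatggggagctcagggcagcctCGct

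It held 42 CpG in 300 bases, more than 97.0% of all promoters, with 2 copies of GGGCGG and 2 of CCAAT.

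Sun1 and Sun2 encode the inner membrane side of the bridge between lamina and cytoskeleton. Sun1 lay on the plus strand of chromosome 5 at 139200564 to 139249839. H3K4me3 covered 12.6 kb of its window in Asxl1-/- cells and 12.2 kb in wild-type cells, a ratio of 1.03, but the places differed: 4 kb was in Asxl1-/- cells only and 3.6 kb in wild-type cells only. The start island of Sun1 was 4 kb in Asxl1-/- cells and 4.6 kb in wild-type cells, and an island of 1.8 kb inside the gene was in the wild-type list only. An island over the start of the neighbour Get4, in the downstream flank, was 8.6 kb in Asxl1-/- cells and 5.8 kb in wild-type cells. In the gene body alone, without Get4, the H3K4me3 ratio of Sun1 was 0.397, so its direction turned. H3K4me2 at Sun1 covered 24.2 kb in Asxl1-/- cells and 29.8 kb in wild-type cells, a ratio of 0.812 at a chromosome ratio of 0.857, and 0.487 in the gene body. The H3K4me2 start island of Sun1 was 3.4 kb in Asxl1-/- cells and 8.2 kb in wild-type cells.

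Sun2 lay on the minus strand of chromosome 15 at 79724068 to 79742536. Its H3K4me3 start island was 11.4 kb in Asxl1-/- cells and 8.2 kb in wild-type cells, and all of the wild-type island was covered in Asxl1-/- cells. A separate wild-type H3K4me3 island of 2.8 kb inside the gene had no match in Asxl1-/- cells. The total was therefore close, 11.4 kb in Asxl1-/- cells and 11 kb in wild-type cells, a ratio of 1.04 at a chromosome ratio of 1.19. H3K4me2 covered 11.9 kb in Asxl1-/- cells and 9.8 kb in wild-type cells, a ratio of 1.22 at a chromosome ratio of 1.04. After Lmna, Sun2 had the widest ASXL1 start island of the 8 genes, at 18.2 kb, and all of the H3K4me3 of both genotypes lay inside it. No H3K27me3 island lay in the window of either SUN gene in either genotype.

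The promoter of Sun2 is shown as that of the gene with the second widest ASXL1 start island among the 8 (RefSeq, GRCm38.p6, minus strand, CpG in capitals).
Sun2, start at 79742536 (chr15:79742537-79742786): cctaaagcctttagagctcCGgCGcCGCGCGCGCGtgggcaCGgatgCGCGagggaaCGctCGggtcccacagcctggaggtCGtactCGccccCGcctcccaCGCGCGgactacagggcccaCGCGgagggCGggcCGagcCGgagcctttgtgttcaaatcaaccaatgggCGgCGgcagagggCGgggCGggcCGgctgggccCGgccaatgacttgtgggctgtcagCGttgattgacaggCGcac

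It held 39 CpG in 300 bases, 5 copies of GGGCGG and 2 of CCAAT. The main promoter of Sun1 was alike in this, with 36 CpG, 4 copies of GGGCGG and 2 of CCAAT, while the promoter of its second listed start held 4 CpG.

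Syne1 and Syne2 encode the giant nesprins of the outer membrane. Syne1 lay on the minus strand of chromosome 10 at 5020192 to 5550692. In Asxl1-/- cells an H3K4me3 island of 1.6 kb and an H3K4me2 island of 3 kb lay over its most upstream start, with no H3K27me3. In wild-type cells that start had no H3K4me3 island, an H3K4me2 island of 1.8 kb and an H3K27me3 island of 3 kb (chr10:5548600-5551599). The H3K27me3 of Asxl1-/- cells in Syne1 was a single island of 8 kb inside the gene (chr10:5322400-5330399), so the 2 genotypes shared no H3K27me3 there. The H3K27me3 ratio of 2.67, at a chromosome ratio of 2.09 and 1.28 after division, compares different places. In the H3K4me3 list of Asxl1-/- cells, 2.93% of the start islands of protein-coding genes were narrower than this one of 1.6 kb.

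The sequence before the upstream start of Syne1 is shown because the 2 genotypes had different marks over it (RefSeq, GRCm38.p6, minus strand, CpG in capitals).
Syne1, start at 5550692 (chr10:5550693-5550942): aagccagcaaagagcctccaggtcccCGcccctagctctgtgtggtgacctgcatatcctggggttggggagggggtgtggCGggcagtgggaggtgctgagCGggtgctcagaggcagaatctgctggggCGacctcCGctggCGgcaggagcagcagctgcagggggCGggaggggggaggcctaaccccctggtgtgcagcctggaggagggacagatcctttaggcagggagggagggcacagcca

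This promoter held 12 CpG in 300 bases and 2 copies of GGGCGG, and those of the other 2 listed starts of Syne1 held 3 and 4 CpG. Over the whole of Syne1, H3K4me3 covered 9.4 kb in Asxl1-/- cells and 8.2 kb in wild-type cells, a ratio of 1.15 at a chromosome ratio of 1.45. H3K4me2 covered 30.6 kb in 14 islands in Asxl1-/- cells and 28 kb in 12 islands in wild-type cells. The H3K4me2 ratio was 1.09, at a chromosome ratio of 1.35. Syne1 had 9 ASXL1 islands, of 0.8 to 5.4 kb, all inside the gene, and none lay over the upstream start.

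Syne2 lay on the plus strand of chromosome 12 at 75818318 to 76110928. H3K4me3 covered 12.2 kb of its window in Asxl1-/- cells and 8.4 kb in wild-type cells, a ratio of 1.45 at a chromosome ratio of 1.17. All of the wild-type length was covered in Asxl1-/- cells too, and the ratio passed the limit for a call in the gene body, at 1.51, and with lists cut to equal numbers of islands, at 1.65. The start island of Syne2, which also lies over the start of Gm40447, was 6.4 kb in Asxl1-/- cells and 4.8 kb in wild-type cells for H3K4me3, and 5.8 kb in both genotypes for H3K4me2. H3K4me2 covered 21.6 kb in Asxl1-/- cells and 25.2 kb in wild-type cells, a ratio of 0.857 at a chromosome ratio of 1.11. There were 2 wild-type H3K4me2 islands, of 5.6 and 3.2 kb deep in the gene, with no match in Asxl1-/- cells. Asxl1-/- islands of 1.8 and 2.6 kb had none in wild-type cells. An H3K27me3 island of 6.6 kb beyond the downstream end of Syne2 was in the Asxl1-/- list only. Chromosome 12 as a whole had an H3K27me3 ratio of 1.87, and 46.7% of its genes were called higher. ASXL1 islands of 6.4 and 5.6 kb lay at the start of Syne2 and just inside the gene, and its promoter held 35 CpG and 3 copies of GGGCGG.

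**Figure D4:**
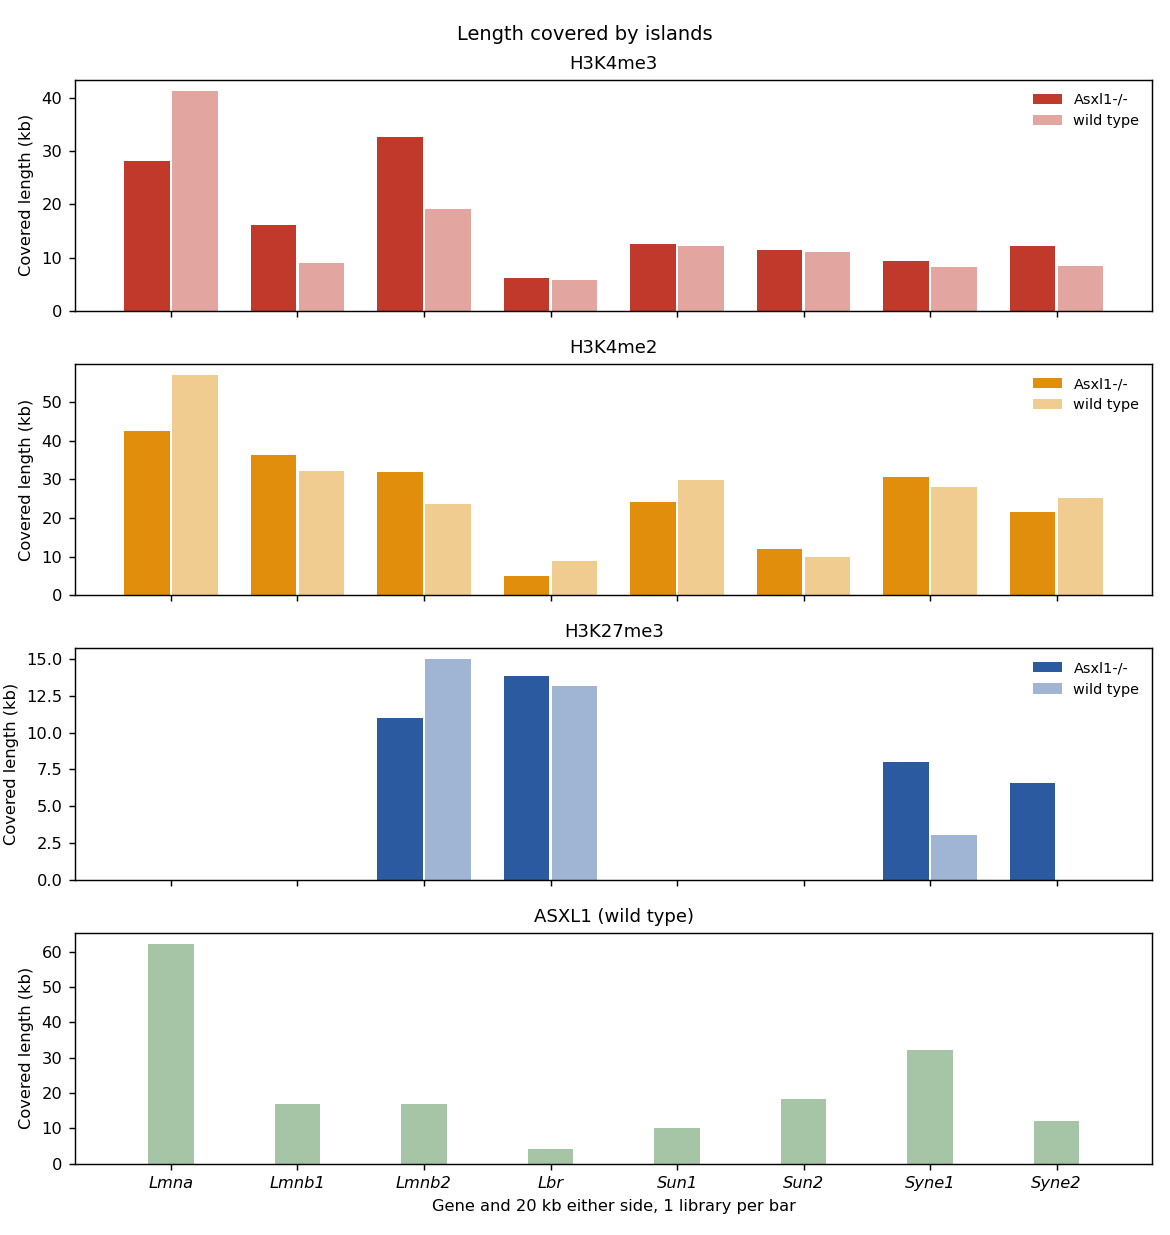
Length in kb covered by islands over each of the 8 genes and 20 kb either side, 1 library per bar; dark bars are Asxl1-/- cells and pale bars wild-type cells, and ASXL1 was mapped in wild-type cells. H3K4me3 at Lmna is 28.1 kb in Asxl1-/- cells and 41.3 kb in wild-type cells, while at Lmnb1 and Lmnb2 the Asxl1-/- bar is the longer one.

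Taking the 8 genes as a list, 2 were called higher for H3K4me3 in Asxl1-/- cells, Lmnb1 and Lmnb2, where 16.7% of all 15529 protein-coding genes with at least 1 kb of H3K4me3 were, and 0 were called lower, where 9.64% were. Their median log2 ratio was 0.14, beside 0.13 over all genes. For every median log2 ratio given here, 0.2 kb was added to both covered lengths. Syne2, with 0 kb of H3K27me3 in wild-type cells, enters the median of that mark only through this addition. For H3K4me2, 0 of the 8 were called higher, against 12.9% of all genes, and 1 was called lower, against 18.3%, with medians of -0.05 for the 8 and -0.07 for all genes. For H3K27me3, 4 of the 8 genes had 1 kb or more. Of these 4, Syne1 and Syne2 were called higher, against 28.8% of all genes, and 0 lower, against 33.3%, with medians of 0.71 for the 4 and -0.07 for all genes. The members' counts for H3K4me3 and H3K4me2 were thus near those of all genes, and 4 genes with H3K27me3 allow no such reading.

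Nearly all of the 8 genes carried ASXL1 and methylated H3K4 at a start. In wild-type cells 8 of the 8 genes had an ASXL1 start island, where 50.5% of all protein-coding genes did, at Syne1 at a start inside the gene. For H3K4me3 it was 7 of 8 in wild-type cells, against 60.1%, and for H3K4me2 8 of 8, against 64.3%. For H3K27me3 it was 1 of 8, Syne1, against 24.6%. All 7 H3K4me3 start islands were kept in Asxl1-/- cells, as 96% were over all genes, and all 8 of H3K4me2 were kept, as 97.4% were. Syne1 gained H3K4me3, as 4.79% of genes without it did, and lost H3K27me3, as 25.5% of genes with it did.

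**Figure D5:**
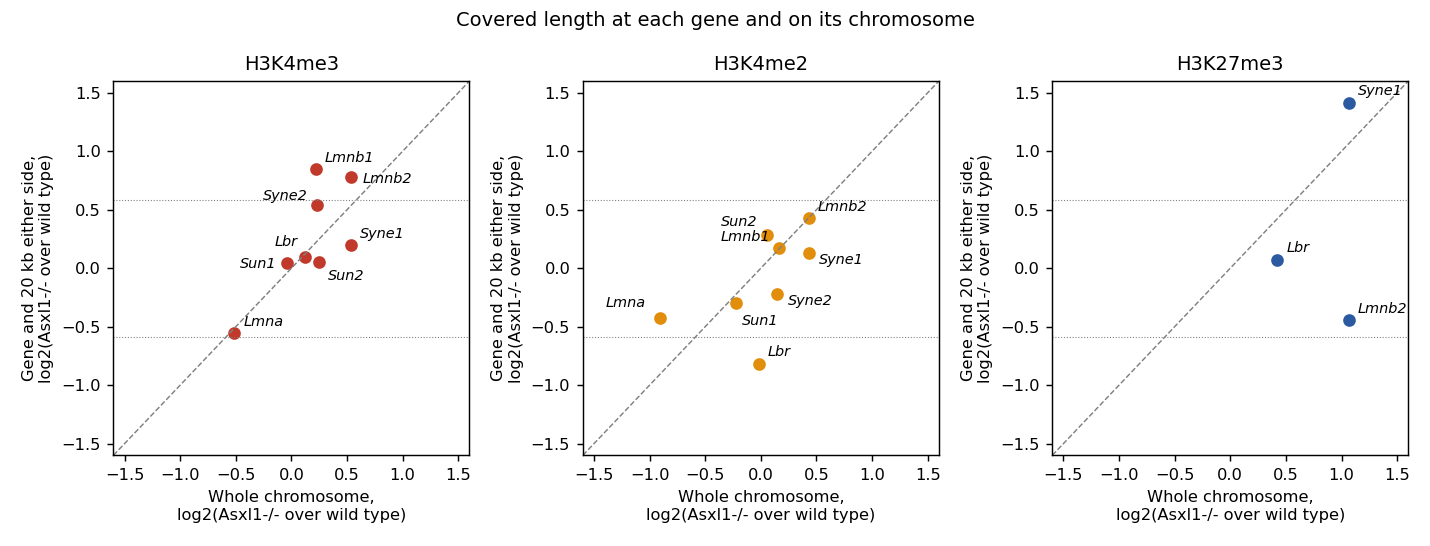
log2 ratio of covered length, Asxl1-/- over wild type, of each gene and 20 kb either side against that of its whole chromosome; the dashed line marks equal ratios and the dotted lines a 1.5-fold difference. Lmna lies near the dashed line for H3K4me3 and above it for H3K4me2, and Syne2, with no wild-type H3K27me3, is not in the H3K27me3 panel.

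Of the ASXL1 length in wild-type cells, H3K4me3 covered 45.1% at Lmna in Asxl1-/- cells and 66.3% in wild-type cells. At Lmnb1 it covered 85.9% in Asxl1-/- cells and 51.8% in wild-type cells, and at Lmnb2 it covered 100% in Asxl1-/- cells and 90.5% in wild-type cells. Read from the other side, all of the H3K4me3 at Lmna lay under the ASXL1 islands in both genotypes, while at Lmnb2 51.6% of it did so in Asxl1-/- cells and 80.0% in wild-type cells.

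A list of 28 other genes linked to the nuclear envelope was described in the same way. The list was broad. It also held the enzyme genes Fnta, Fntb, Rce1 and Icmt and the chromatin protein genes Cbx1, Cbx3 and Cbx5, which are not envelope components. Of 27 with at least 1 kb of H3K4me3, Banf1 and Spag4 were called higher, against 16.7% of all genes, and 0 lower, against 9.64%, with a median log2 ratio of 0.09, beside 0.13 over all genes. Banf1, which encodes a DNA-bridging protein that binds LEM-domain proteins, had 22.6 kb of H3K4me3 in Asxl1-/- cells and 13.0 kb in wild-type cells. Spag4, a SUN-family gene, had 6.8 kb in Asxl1-/- cells and 3 kb in wild-type cells. For H3K4me2, Icmt was called higher, against 12.9% of all genes, and Lemd2 and Spag4 lower, against 18.3%, with a median of -0.09, beside -0.07 over all genes.

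For H3K27me3, 5 of 18 genes were called higher, where 28.8% of all genes were, and 6 lower, where 33.3% were, so both counts were near those of all genes. The median was 0.13, beside -0.07 over all genes. Zmpste24, whose protease cuts prelamin A, had 2.36 kb of H3K27me3 in its window in Asxl1-/- cells and 18.4 kb in wild-type cells, at a ratio of 0.619 for chromosome 4. Icmt, the methyltransferase, is on that chromosome too and had 15.6 kb in Asxl1-/- cells and 23.8 kb in wild-type cells, a ratio of 0.655. Fntb, a farnesyltransferase subunit, had 4.4 kb in Asxl1-/- cells and 12 kb in wild-type cells, at a chromosome ratio of 1.87. Rce1, the protease that acts after farnesylation, had 10.7 kb in Asxl1-/- cells and 0 in wild-type cells, at a chromosome ratio of 1.05. Fnta, the other farnesyltransferase subunit, had 0 in both genotypes.

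Emd, the gene of the LEM-domain protein emerin, had 20.7 kb of H3K27me3 in Asxl1-/- cells and 0 in wild-type cells, on an X chromosome whose ratio was 11.7. Sun5, a SUN-family gene, had 30.8 kb in Asxl1-/- cells and 17.2 kb in wild-type cells, at a ratio of 0.815 for chromosome 2. Syne3, which encodes nesprin-3, had 13.9 kb in Asxl1-/- cells and 0 in wild-type cells, at a chromosome ratio of 1.87. Tmem43, an inner membrane protein gene, had 2.49 kb in Asxl1-/- cells and 1.09 kb in wild-type cells, at a chromosome ratio of 0.996. Syne4, which encodes nesprin-4, had 0 in Asxl1-/- cells and 14.2 kb in wild-type cells, at a chromosome ratio of 0.736. The torsin genes Tor1a and Tor1b, which are neighbours on chromosome 2, each had 0 in Asxl1-/- cells and 8.6 kb in wild-type cells. Their lower calls may rest on the same island and so may not be separate.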

How the data were processed

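Islands of H3K4me3, H3K4me2 and H3K27me3 in Asxl1-/- and wild-type cells and of ASXL1 in wild-type cells were taken as the authors deposited them, 1 list per library. Per the submitters' processing notes, BWA and SICER 1.1 were used with mm10, and the sources used here do not give the parameters, the control or the false discovery limit. Each deposited list gives chromosome, start, end, a running number and a library name on a grid of 200 bp, with no count, score or p-value. The input library was not analysed here.

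Gene positions and promoter sequences came from RefSeq tables of GRCm38.p6, which hold no exons or untranslated regions, and 7 of the 8 genes had a promoter entry. Starts were the promoter table's, plus the 5' end of the gene, or either end where no strand was known. Covered length was computed genome-wide for 21631 protein-coding genes with 20 kb flanks. A gene was called when it differed 1.5-fold or more, or was 0 in 1 genotype, among genes with 1 kb or more in at least 1. Any overlap of 1 bp counted. The genes named are the 8, the envelope and pore genes called for H3K4me3 or H3K27me3, and the 3 most like Lmna over 1 Mb away. List genes called for H3K4me2, and Fnta and Nup210, are named outside that rule, after their values were seen. Cbx1, Cbx3 and Cbx5 are named to describe the list. The members and lists were chosen with earlier results of these data known, and the markers and the comparison with the 50 widest islands after these values were seen. Python 3.11.15, numpy 2.4.6 and matplotlib 3.10.9 were used, and the code was tested on simulated lists. Flanks, fold limit, list length, island width, merging and chromosome ratio were varied, and merging for the other 7 genes was added after the values were seen.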

Additional observations from a re-analysis of the deposited data

How the results depend on the processing

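No paired analysis was possible because each target and genotype has 1 library, and for the same reason no library could be left out. Counts and widths that moved by over 1.5-fold, and medians by as much on the log2 scale, are given here, and the cause was not tested. Merging islands across gaps of up to 1000 bp made the Lmna island 24.6 kb for H3K4me3 in Asxl1-/- cells and 65.8 kb for H3K4me2 in wild-type cells, and merging across 3000 bp left those values and gave 54.4 kb for H3K4me3 in wild-type cells. Among the 8 genes, calls of higher H3K4me3 numbered 1 after division by the chromosome ratio and 0 at a fold of 2, and calls of lower H3K4me3 numbered 1 at a fold limit lower than 1.5 and in the gene body. Higher H3K4me2 calls numbered 1 with 10 kb flanks, at the lower fold limit and in the gene body, and lower ones 0 with 10 kb flanks or a fold of 2, and 2 at the lower fold limit. Higher H3K27me3 calls numbered 1 after division by the chromosome ratio, with 10 kb flanks and in the gene body, and lower ones 1 after division, with 10 or 50 kb flanks and at the lower fold limit. The median log2 ratio of H3K27me3 was -0.028 after division and -0.37 with 10 kb flanks, with Syne2 no longer counted. In the gene body it was 1.84, the value of Syne1 alone with 0.2 kb added to both lengths. The other members had no H3K27me3 there, and the islands of Syne1 lay in different places in the genotypes. Calls in either direction on the envelope and pore lists numbered, for H3K4me3, 5 after division, 5 with 10 kb and 6 with 50 kb flanks, 12 at the lower fold limit, 1 at a fold of 2 and 8 in the gene body. For H3K4me2 they numbered 15 at the lower fold limit and 3 at a fold of 2, and for H3K27me3 1 in the gene body. The H3K4me3 ratio of Sun1 was 0.397 in the gene body, opposite in direction. Of the other ratios of single genes under an alternative, 135 kept their side of the limit, 12 passed it and 8 no longer did. The 135 include H3K27me3 at Syne2, which has 0 kb in wild-type cells. It counts as higher at any fold limit or chromosome ratio, so those settings do not test it. It is also the 1 higher H3K27me3 call left after division. Among the 135, the direction of 11 ratios short of the limit turned: 6 after division by the chromosome ratio, and 5 with other flanks or none. Island edges depend on library depth, which the lists do not give.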

Other observations

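Of 16 nuclear pore genes, all had an H3K4me3 start island in both genotypes, against 60.1% of all genes in wild-type cells, and 15 had an ASXL1 start island in wild-type cells, against 50.5%. For H3K4me3, 0 were called higher, against 16.7% of all genes, and 1 lower, against 9.64%, with a median log2 ratio of -0.02 beside 0.13 over all genes: Ndc1, which encodes a membrane nucleoporin, had 5.95 kb in Asxl1-/- cells and 9.35 kb in wild-type cells. For H3K4me2, 0 were called higher, against 12.9% of all genes, and 3 lower, Ndc1, Nup153 and Nup93, against 18.3%, with a median log2 ratio of -0.29, beside -0.07 over all genes. Nup153, a nucleoporin of the nuclear basket, had 11 kb of H3K4me2 in Asxl1-/- cells and 23.4 kb in wild-type cells, at a ratio of 0.616 for its chromosome. Of 10 with H3K27me3, Nup50 was called higher, against 28.8% of all genes, and 5 lower, against 33.3%, with a median of -0.42, beside -0.07 over all genes. Nup50, whose protein helps cargo release at the basket, had 5.17 kb in Asxl1-/- cells and 1.37 kb in wild-type cells. Pom121, a membrane nucleoporin gene, had 0.26 kb in Asxl1-/- cells and 10.9 kb in wild-type cells. Nup98 had 1.8 kb in Asxl1-/- cells and 13.6 kb in wild-type cells, and Nup133 had 4.8 kb in Asxl1-/- cells and 8.6 kb in wild-type cells. Nup62 and Nup153 each had 0 in Asxl1-/- cells and 5.6 kb in wild-type cells. The chromosomes of the 5 genes called lower had H3K27me3 ratios of 0.491 to 0.826, and that of Nup50 had 1.21. The part of the chromosome in these calls and in the median was not tested. Nup210, chosen after its values were seen, lay under long H3K27me3 islands, which covered 136.7 kb of its window in Asxl1-/- cells and 138.3 kb in wild-type cells.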
